A study of Mus musculus with 12 samples.

Results

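The genes described here are 10 mouse genes of the cell-cycle step that precedes DNA replication: the D cyclins (Ccnd1, Ccnd2, Ccnd3), their kinases (Cdk4, Cdk6) and the CDK inhibitors of the CIP/KIP type (Cdkn1a, Cdkn1b) and the INK4 type (Cdkn2a, Cdkn2b, Cdkn2c). They were taken by gene symbol from the RNA sequencing tables of 4 NIH-3T3 lines, and make up 10 of 39179 gene IDs. NIH-3T3 is an immortalized mouse embryo fibroblast line. Retroviruses brought in an empty vector (EV), wild-type CBL (WT-CBL) or one of the mutants CBL-70Z and CBL-Y371S, and each of the 4 lines gave 3 libraries, 12 in all. CBL is an E3 ubiquitin ligase that attaches ubiquitin to activated receptor tyrosine kinases, and both mutants, a deletion (70Z) and a substitution of a tyrosine (Y371S), lack that ligase activity. All 4 lines grew in the same serum-containing medium, were used at passages 13 to 17 and were selected with puromycin after infection. Each line is thus an infected pool that still has its own Cbl gene, and nothing states that the 3 libraries of a line came from separate cultures, so p-values speak only of the spread among the libraries at hand.

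D cyclins are made in response to growth factors and bind CDK4 or CDK6, and the active kinases phosphorylate the retinoblastoma protein RB, which frees E2F factors to transcribe genes of DNA replication. INK4 proteins bind CDK4 and CDK6 directly and keep the D cyclins off, whereas p21 (Cdkn1a) and p27 (Cdkn1b) bind cyclin-CDK pairs, block CDK2 and can also help to assemble D cyclins with their kinases. In fibroblasts cyclin D1 is a classical target of RAS-ERK signalling, and p27 is held high in resting cells. Much of the control of D cyclins and of p27 acts on the proteins, which RNA sequencing does not measure.

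Reads in genes ranged from 20724468 to 29684881 per library. Values are normalized reads, on a scale common to the 12 libraries, and differences are given on the log2(value + 1) scale with the standard error (SE) of limma. Mouse Cbl was at 624.95 to 728.1 normalized reads in the EV libraries, 687.5 to 924.8 in WT-CBL, 1614 to 1820 in the CBL-70Z line and 1407 to 1680 in CBL-Y371S, so the EV and WT-CBL libraries overlapped at this gene. Which reads of the introduced CBL align there was not tested. All 10 fibroblast markers were expressed, with a summed level of 1154160 to 1188780 in EV, 896064 to 907422 in the CBL-70Z line and 812403 to 854427 in CBL-Y371S, with WT-CBL between EV and CBL-70Z; the part of this shift in the members' differences was not tested. Of the markers of other cell types, 2 of 7 found for blood, 2 of 7 epithelial, 2 of 7 endothelial, 0 of 6 adipocyte and 3 of 7 skeletal muscle genes had a mean of at least 10. Myod1, Myh1 and Lep had no read in any library, Ptprc and Epcam had means of 2.02 and 5.49, and the highest of these markers was Cd68 at 99.4. WT-CBL replicate 3 stood furthest from its partners, with a median absolute deviation of 0.103 on the log2 scale against 0.054 to 0.075 in the other 11 libraries. Differences from EV also followed exon length across 15095 genes (Spearman rho: WT-CBL -0.41, CBL-70Z -0.17, CBL-Y371S -0.37), so each difference was computed a second time with the trend over exon length and GC content removed.

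Of the 10 members, 8 passed the filter of a mean of 10 in a line and were tested among 15266 genes, with a gene called at an adjusted p below 0.05. Cdkn2a and Cdkn2b did not pass. In WT-CBL against EV, 3 members were called higher and 4 lower, where 20.8% of all tested genes were called higher and 21% lower. In CBL-70Z against EV the members split into 3 higher and 3 lower, over a background of 12.2% higher and 12.1% lower. In CBL-Y371S against EV all 8 were called, 4 in each direction, with 29.8% of all genes called higher and 30.3% lower. The 3 comparisons use the same EV libraries, so their values are not independent of each other. With scaling by total reads the genes called in CBL-70Z against EV moved from 1855 higher and 1850 lower to 2721 and 1441, while no called member changed direction. The median size of the log2 difference over the tested members was 0.29, 0.18 and 0.39 in the comparisons of the 3 CBL lines with EV, in the order just given, and that over all tested genes was 0.15, 0.11 and 0.25. A difference in bulk RNA does not tell a changed number of cells from a changed amount of RNA per cell.

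**Figure D1:**
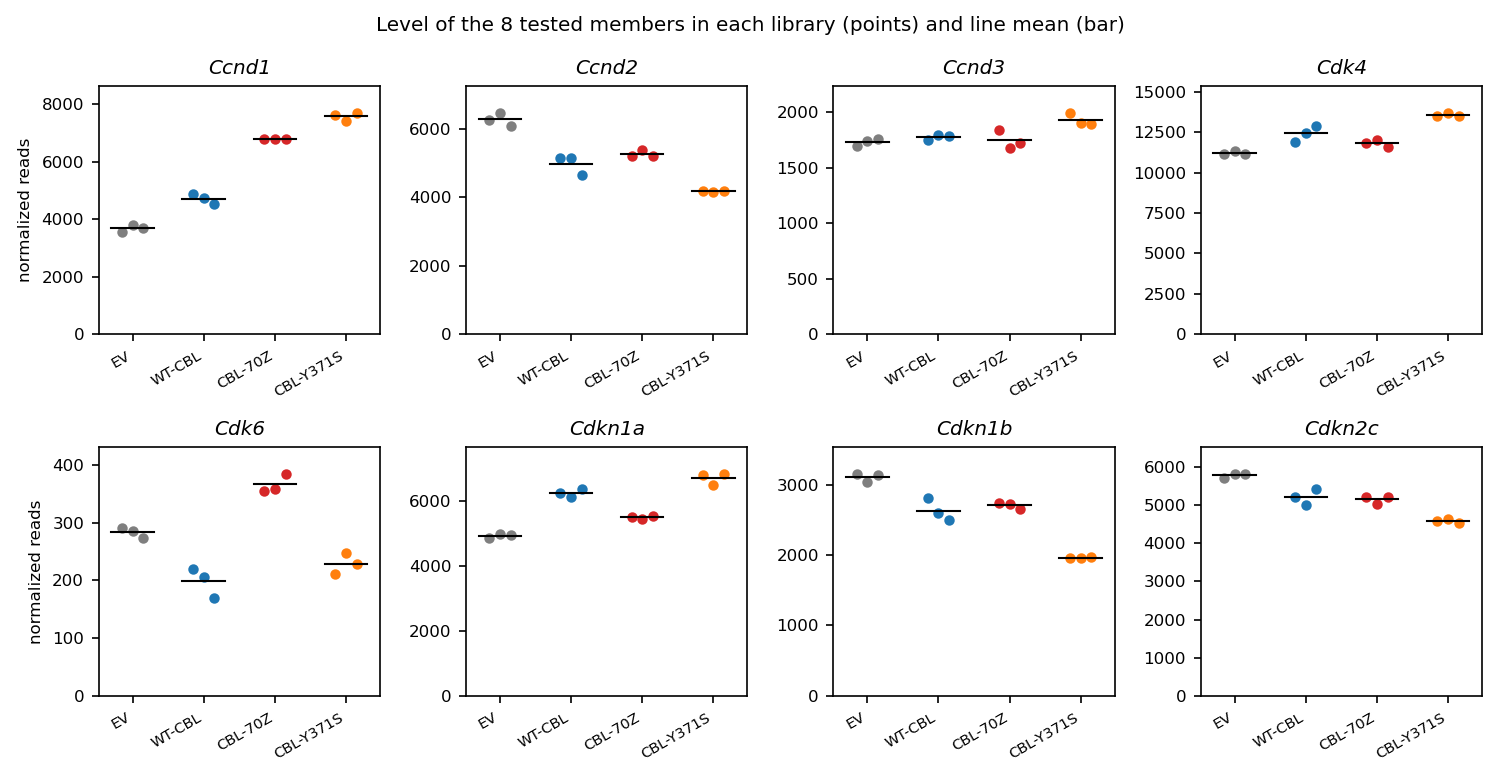
Normalized reads (vertical axes, each from 0) of the 8 tested members in the 4 lines (horizontal axes), with 1 point per library and a bar at the mean of 3 libraries. Ccnd1 rose from EV to CBL-Y371S without overlap of lines, Ccnd2 and Cdkn1b were lowest in CBL-Y371S, and Cdk6 was highest in the CBL-70Z line.

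Cyclin D1 was the member whose level differed most between lines. Ccnd1 (chromosome 7, 144929931 to 144939925 of GRCm38, minus strand) was at 3561, 3796 and 3691 normalized reads in the EV libraries, 4882, 4723 and 4539 in WT-CBL, 6791, 6804 and 6795 in the CBL-70Z line and 7614, 7407 and 7706 in CBL-Y371S. No library of a line overlapped with one of another line, and the order was EV, WT-CBL, CBL-70Z, CBL-Y371S. Against EV the log2 difference was 0.36 in WT-CBL (limma, SE 0.031, adjusted p = 4.59e-08), 0.88 in the CBL-70Z line (adjusted p = 4.91e-14) and, for CBL-Y371S, 1.04 (adjusted p = 1.25e-15), which are 1.28-fold, 1.85-fold and 2.06-fold. Both mutant lines also stood above WT-CBL, by 0.53 (adjusted p = 8.49e-11) and 0.68 (adjusted p = 1.25e-12). Ccnd1 differed less between the mutants, where CBL-70Z was 0.16 below CBL-Y371S (adjusted p = 0.000304). With the length and GC trend removed the differences from EV were 0.37, 0.90 and 1.05. In size, 98.5% of all tested genes moved less than Ccnd1 in the CBL-70Z line against EV, as did 96.8% in CBL-Y371S and 84.8% in WT-CBL.

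Cyclin D2 moved the other way. Ccnd2 (chromosome 6, 127125162 to 127152193, minus strand) was at 6253, 6472 and 6091 normalized reads in the EV libraries, 5150, 5155 and 4650 in WT-CBL, 5215, 5368 and 5203 in the CBL-70Z line and 4194, 4144 and 4185 in CBL-Y371S. Every EV library lay above all others and every CBL-Y371S library below all others. The log2 differences from EV were -0.33 in WT-CBL (SE 0.036, adjusted p = 5.16e-07), -0.25 in the CBL-70Z line (adjusted p = 2.18e-05) and, for CBL-Y371S, -0.59 (adjusted p = 3.25e-11). Ccnd2 is a long transcript, and with the trend removed these became -0.18, -0.21 and -0.33, all still called. CBL-70Z and WT-CBL were not told apart at Ccnd2, at 0.08 (SE 0.036, adjusted p = 0.0919). Without WT-CBL replicate 1 or replicate 2 this difference was called, at 0.10 in each case.

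Cyclin D3 was the tested member with the smallest range of line means. Ccnd3 (chromosome 17, 47505051 to 47599691, plus strand) ranged over 1699 to 1758 normalized reads in the EV libraries, 1750 to 1795 in WT-CBL, 1677 to 1846 in the CBL-70Z line and 1895 to 1998 in CBL-Y371S. The first 3 lines overlapped and CBL-Y371S lay above them. CBL-Y371S exceeded EV by 0.16 (SE 0.037, adjusted p = 0.00116), WT-CBL by 0.12 (adjusted p = 0.0147) and CBL-70Z by 0.14 (adjusted p = 0.00313). WT-CBL and CBL-70Z differed from EV by 0.04 and 0.01 (adjusted p = 0.463 and 0.844). With the trend removed the difference of CBL-Y371S from EV was 0.25 (adjusted p = 7.97e-06), and that of WT-CBL was called, at 0.14 (adjusted p = 0.00644). The call of CBL-Y371S against WT-CBL was lost without WT-CBL replicate 1 or CBL-Y371S replicate 1, where the differences were 0.11 and 0.10 (adjusted p = 0.0523 and 0.081).

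Per base of exon, the D cyclins shifted in make-up from near balance between D1 and D2 to a large majority of D1. Levels per kilobase of annotated exon were summed over the 3 genes in each library. Ccnd1 made up 46.8%, 47.6% and 48.0% of the sum in the EV libraries, 58.1%, 57.1% and 58.0% in WT-CBL, 65.4%, 65.5% and 65.8% in the CBL-70Z line and 70.6%, 70.5% and 71.2% in CBL-Y371S. Ccnd2 fell from a share of 40.5% ± 0.755 (SD, n = 3) in EV to 30.5% ± 0.744 in WT-CBL, 25.4% ± 0.40 in the CBL-70Z line and 19.5% ± 0.200 in CBL-Y371S. The Ccnd3 share stayed between 8.66% and 12.3% in the 12 libraries. The summed level was 1646 ± 40.8 normalized reads per kilobase in EV, 1733 ± 63.8 in WT-CBL, 2202 ± 8.15 in the CBL-70Z line and 2273 ± 36.9 in CBL-Y371S, so the libraries of both mutant lines lay above all others, and those of EV (1614 to 1692) and WT-CBL (1662 to 1783) overlapped. The ratio of Ccnd1 to Ccnd2 per kilobase was 1.17 ± 0.037 in EV and 3.63 ± 0.054 in CBL-Y371S. With the longest transcript as the length, EV had Ccnd1 and Ccnd2 at 40.6% and 40.9%, and the order of the Ccnd1 shares over the lines was the same (50.3%, 58.6% and 63.6%).

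**Figure D2:**
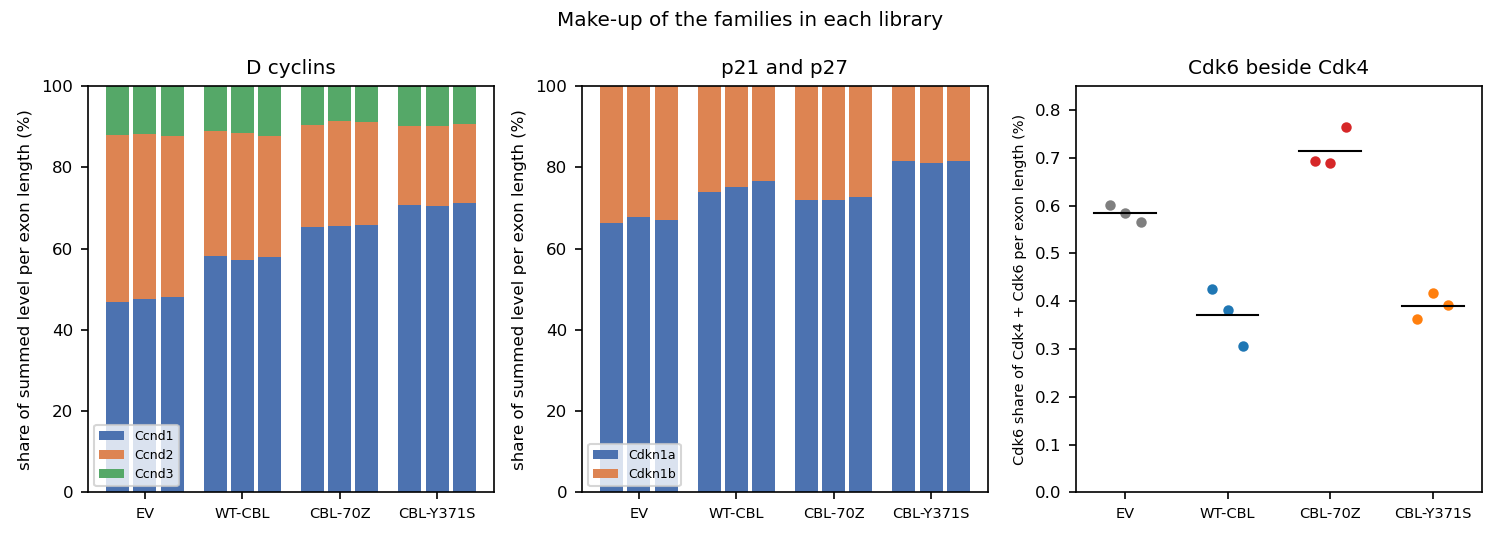
Stacked bars give the share of each gene (vertical axes, percent of the summed normalized reads per kilobase of exon) in each of the 12 libraries, 3 bars per line, for the D cyclins and for p21 with p27; points in the third panel give the Cdk6 share beside Cdk4, with a bar at the line mean. The Ccnd1 share went from 46.8% to 48.0% in EV to 70.5% to 71.2% in CBL-Y371S, and the Cdk6 share stayed under 0.77% in every library.

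CDK4 was the most abundant member per kilobase in every line, and CDK6 the least abundant of those tested. Cdk4 (chromosome 10, 127063534 to 127067920, plus strand) was at 11159, 11308 and 11132 normalized reads in the EV libraries, 11882, 12461 and 12905 in WT-CBL, 11843, 12031 and 11605 in the CBL-70Z line and 13487, 13707 and 13497 in CBL-Y371S. CBL-Y371S lay above all other libraries, and WT-CBL and CBL-70Z overlapped. Cdk4 rose by 0.15 in WT-CBL (SE 0.029, adjusted p = 0.000352) and by 0.28 in CBL-Y371S (adjusted p = 6.8e-08) against EV. The difference of CBL-70Z from EV was 0.08 (adjusted p = 0.0531). That value sat at the threshold, being called with total-read scaling, with a filter at a mean of 50, with only the lines compared in the fit, on the deposited table alone and with the trend removed (adjusted p from 0.00421 to 0.0451 in these 5 settings). It was also called without WT-CBL replicate 1 or WT-CBL replicate 3, libraries that enter only the shared spread (adjusted p = 0.0295 and 0.0067). By edgeR and DESeq2 this difference was not called, and with 1 library left out the highest adjusted p by limma was 0.172. CBL-Y371S also exceeded WT-CBL at Cdk4, by 0.13 (adjusted p = 0.0013), and CBL-70Z by 0.20 (CBL-70Z against CBL-Y371S -0.20, adjusted p = 9.93e-06, and -0.10 with the trend removed).

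Cdk6 separated CBL-70Z from the other lines. Cdk6 (chromosome 5, 3341485 to 3531008, plus strand) was at 290.2, 286.1 and 273.1 normalized reads in the EV libraries, 219.1, 205.2 and 170.1 in WT-CBL, 355.6, 359.0 and 384.3 in the CBL-70Z line and 211.0, 246.7 and 228.5 in CBL-Y371S. Every CBL-70Z library was above every EV library, and every EV library above all of WT-CBL and CBL-Y371S, which overlapped. Against EV the log2 difference was -0.52 in WT-CBL (SE 0.086, adjusted p = 7.23e-05), 0.37 in the CBL-70Z line (adjusted p = 0.00326) and, for CBL-Y371S, -0.31 (adjusted p = 0.00415). CBL-70Z exceeded WT-CBL by 0.89 (adjusted p = 1.26e-07) and CBL-Y371S by 0.68 (adjusted p = 1.97e-06), the latter falling to 0.35 with the trend removed. Cdk6 has the longest exons of the members, 13989 bases in union, and the fall in CBL-Y371S did not outlast removal of the trend, where the difference was 0.06 (adjusted p = 0.494). With the trend removed WT-CBL remained below EV (-0.29, adjusted p = 0.00499) and CBL-70Z above it (0.42, adjusted p = 0.000223). CBL-Y371S against WT-CBL was 0.21 (adjusted p = 0.0578) and was called with the trend removed, at 0.35 (adjusted p = 0.000824), as well as without WT-CBL replicate 1 (0.29) and without CBL-Y371S replicate 1 (0.27). Without WT-CBL replicate 3, the lowest library, the WT-CBL difference from EV was -0.42 and remained called.

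Per kilobase of exon, Cdk4 exceeded Cdk6 by a ratio of 170 ± 4.99 in EV, 274 ± 47.8 in WT-CBL, 139 ± 7.98 in the CBL-70Z line and 256 ± 18.1 in CBL-Y371S (SD, n = 3). Cdk6 thus made up 0.584% ± 0.017 of the summed level of both kinases in EV and 0.715% ± 0.042 in CBL-70Z, where it was highest.

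RefSeq promoter windows (build GRCm38.p6), 250 bases before to 50 after a start, were found for 8 of the 10 members, all but Ccnd1 and Ccnd2. They are shown for the members among these 8 that were called higher in both WT-CBL and CBL-Y371S than in EV (Cdk4 and Cdkn1a), for Cdk6, and for inhibitors that were lower than EV in all 3 CBL lines (Cdkn1b and Cdkn2c), to set their letters side by side. Capitals mark matches on either strand to any of 7 motifs. The E-box was searched as CACGTG. The letters of the GC box were GGGCGG. The CCAAT box is spelled by its name. For the cyclic AMP element TGACGTCA was searched. The TATA box was read as TATAAA. E2F letters were searched as TTTGGCGC and as TTTCCCGC. Cdk4 (chr10:127063285-127063584, plus strand) held 4 E-boxes, which begin at -172, -118, -98 and -11 counted from the start base as 0, and 3 GC boxes. Cdk6 (chr5:3343643-3343942, plus strand) held 1 E-box and 1 TATA box. E-boxes are bound by MYC among other factors, and Cdk4 is a known MYC target.
Cdk4: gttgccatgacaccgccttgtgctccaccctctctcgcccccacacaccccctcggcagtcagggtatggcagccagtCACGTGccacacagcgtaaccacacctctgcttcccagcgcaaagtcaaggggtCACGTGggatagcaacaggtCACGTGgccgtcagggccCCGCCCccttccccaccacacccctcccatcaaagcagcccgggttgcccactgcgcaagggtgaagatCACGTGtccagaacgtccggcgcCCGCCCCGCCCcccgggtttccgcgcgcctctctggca
Cdk6: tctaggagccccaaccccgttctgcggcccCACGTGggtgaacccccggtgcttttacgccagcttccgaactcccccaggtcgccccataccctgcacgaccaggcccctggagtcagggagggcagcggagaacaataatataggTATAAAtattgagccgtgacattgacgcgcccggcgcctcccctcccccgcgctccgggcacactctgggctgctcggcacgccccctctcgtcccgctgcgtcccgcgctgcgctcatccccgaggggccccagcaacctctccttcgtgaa

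Of 32851 RefSeq promoter windows of the same length, 7.15% held at least 1 E-box, 35.7% a GC box, 37.4% a CCAAT box, 1.79% a cyclic AMP element, 13.6% a TATA box, and 0.514% and 1.07% the 2 forms of E2F letters. A match is a description of the letters and no binding was measured.

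p21 rose in all 3 CBL lines. Cdkn1a (chromosome 17, 29090976 to 29100727, plus strand), best known as a target of p53, was at 4862, 4980 and 4968 normalized reads in the EV libraries, 6239, 6127 and 6370 in WT-CBL, 5498, 5463 and 5541 in the CBL-70Z line and 6795, 6512 and 6835 in CBL-Y371S. The lines did not overlap, and the order was EV, CBL-70Z, WT-CBL, CBL-Y371S. The log2 differences from EV were 0.34 in WT-CBL (SE 0.027, adjusted p = 1.54e-08), 0.16 in the CBL-70Z line (adjusted p = 0.000252) and, for CBL-Y371S, 0.44 (adjusted p = 4.29e-11). CBL-70Z was lower than WT-CBL at Cdkn1a by a log2 difference of -0.18 (adjusted p = 2.91e-05), whereas CBL-Y371S was 0.10 above WT-CBL (adjusted p = 0.00475). With the trend removed the former became -0.11 and remained called, and the latter was lost, at 0.06 (adjusted p = 0.0652).

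p27 fell in all 3 CBL lines and was lowest in CBL-Y371S. Cdkn1b (chromosome 6, 134920401 to 134925513, plus strand) was at 3153, 3041 and 3134 normalized reads in the EV libraries, 2810, 2595 and 2502 in WT-CBL, 2747, 2734 and 2652 in the CBL-70Z line and 1963, 1965 and 1970 in CBL-Y371S. EV lay above and CBL-Y371S below all others, and WT-CBL and CBL-70Z overlapped. The log2 differences from EV were -0.24 in WT-CBL (SE 0.037, adjusted p = 3.03e-05), -0.20 in the CBL-70Z line (adjusted p = 0.000435) and, for CBL-Y371S, -0.66 (adjusted p = 8.82e-12). CBL-Y371S stood at -0.42 against WT-CBL (adjusted p = 2.17e-08), and CBL-70Z was 0.46 above CBL-Y371S (adjusted p = 5.18e-09). CBL-70Z and WT-CBL differed at Cdkn1b by 0.04 (SE 0.037, adjusted p = 0.405). With the trend removed the fall in CBL-Y371S was -0.55 (adjusted p = 2.73e-12).

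The CIP/KIP pair changed in opposite directions, which moved its make-up. Cdkn1a made up 67.0% ± 0.668 (SD, n = 3) of the summed level per kilobase in EV, 75.2% ± 1.27 in WT-CBL, 72.2% ± 0.504 in the CBL-70Z line and 81.4% ± 0.393 in CBL-Y371S. The ratio of Cdkn1a to Cdkn1b per kilobase was 2.03 ± 0.062 in EV, 3.04 ± 0.209 in WT-CBL, 2.60 ± 0.066 in the CBL-70Z line and 4.37 ± 0.112 in CBL-Y371S, and no libraries of different lines overlapped in it. With the longest transcript as the length the ratios were higher, from 3.48 in EV to 7.47 for CBL-Y371S, in the same order of lines. The promoter window of the first listed start of Cdkn1a, not shown, held no match to any of the motifs. In the windows shown, Cdkn1a (chr17:29093519-29093818, plus strand, the second of 2 listed starts) held 2 GC boxes, and Cdkn1b (chr6:134920151-134920450, plus strand) held 1 GC box and 3 CCAAT boxes.
Cdkn1a: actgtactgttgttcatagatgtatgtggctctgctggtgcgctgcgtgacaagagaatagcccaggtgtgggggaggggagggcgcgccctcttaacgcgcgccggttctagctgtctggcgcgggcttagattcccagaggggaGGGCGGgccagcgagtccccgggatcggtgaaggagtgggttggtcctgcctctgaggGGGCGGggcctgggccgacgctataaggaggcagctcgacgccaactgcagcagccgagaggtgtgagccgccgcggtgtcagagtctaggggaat
Cdkn1b: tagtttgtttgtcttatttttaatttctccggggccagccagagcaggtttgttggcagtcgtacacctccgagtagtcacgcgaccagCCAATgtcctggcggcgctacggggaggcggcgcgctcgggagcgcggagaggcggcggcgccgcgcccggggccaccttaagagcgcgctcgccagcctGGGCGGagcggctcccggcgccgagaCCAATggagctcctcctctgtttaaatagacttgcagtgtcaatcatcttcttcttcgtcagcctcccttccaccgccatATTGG

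Of the 3 INK4 inhibitors among the members, p18 (Cdkn2c) alone passed the filter on low values. Cdkn2c (chromosome 4, 109660876 to 109667189, minus strand) was at 5715, 5814 and 5811 normalized reads in the EV libraries, 5214, 5004 and 5422 in WT-CBL, 5204, 5040 and 5218 in the CBL-70Z line and 4585, 4642 and 4536 in CBL-Y371S. EV was highest and CBL-Y371S lowest, with no overlap, and WT-CBL and CBL-70Z overlapped. The log2 differences from EV were -0.15 in WT-CBL (SE 0.030, adjusted p = 0.000476), -0.17 in the CBL-70Z line (adjusted p = 0.000345) and, for CBL-Y371S, -0.33 (adjusted p = 8.87e-09). Removing the trend made the falls in WT-CBL and CBL-Y371S larger, at -0.23 and -0.48. CBL-70Z against WT-CBL was -0.02 (adjusted p = 0.725) and turned to 0.10 with the trend removed (adjusted p = 0.0049). Cdkn2c was the second most abundant member per kilobase in EV (2152 ± 20.98), after Cdk4 (3447 ± 29.1) and before Cdkn1a (1389 ± 18.4), and in CBL-Y371S Cdkn1a (1890 ± 49.6) lay above it (1708 ± 19.7). With the longest transcript as the length Cdkn1a lay above Cdkn2c also in EV, at 2373 ± 31.4 against 2339 ± 22.8, with overlapping ranges. Cdkn2c has 2 listed starts, and the window of the second, not shown, held 1 E-box, 1 CCAAT box and no GC box. The promoter window of the first (chr4:109666707-109667006, minus strand) held 4 GC boxes and no CCAAT box.
Cdkn2c: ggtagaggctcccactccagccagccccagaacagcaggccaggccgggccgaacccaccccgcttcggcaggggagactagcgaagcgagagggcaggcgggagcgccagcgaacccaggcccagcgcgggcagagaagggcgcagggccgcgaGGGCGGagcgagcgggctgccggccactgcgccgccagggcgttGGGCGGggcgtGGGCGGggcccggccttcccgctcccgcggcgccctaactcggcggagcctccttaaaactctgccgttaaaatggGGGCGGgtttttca

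Cdkn2a, which encodes p16 and the p53 activator p19ARF, had 4 reads among 293812041 in the 12 libraries, and 9 libraries had none. Those reads were 1 in EV replicate 1, 1 in WT-CBL replicate 1 and 2 in CBL-70Z replicate 2. Cdkn2b, which encodes p15, had 11 reads, 6 of them in CBL-Y371S replicate 3, and 8 libraries had none. No fold is given, since every library but that one had at most 3 reads, which is the floor that a count of 0 allows. NIH-3T3 cells are known to lack the Cdkn2a locus. On the side of Mtap, 5 neighbours had a mean of at least 10 and most others were silent. Mtap itself, an enzyme of methionine salvage whose centre lies at -133.7 kb from the middle of Cdkn2a and Cdkn2b, was at 7578 to 9992 normalized reads, Klhl9 at 3980 to 5187 and Focad at 1241 to 1680. On the other side Dmrta1 and Zfp352 had 1 read each. Of 40 protein-coding genes within 1 Mb, the pair included, 30 were in the tables and 21 had under 10 reads in all. Many of the silent ones are type I interferon genes, which are little expressed in unstimulated cells. Read counts in genes do not tell a lost locus from a silent one, and which applies here was not tested.

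**Figure D3:**
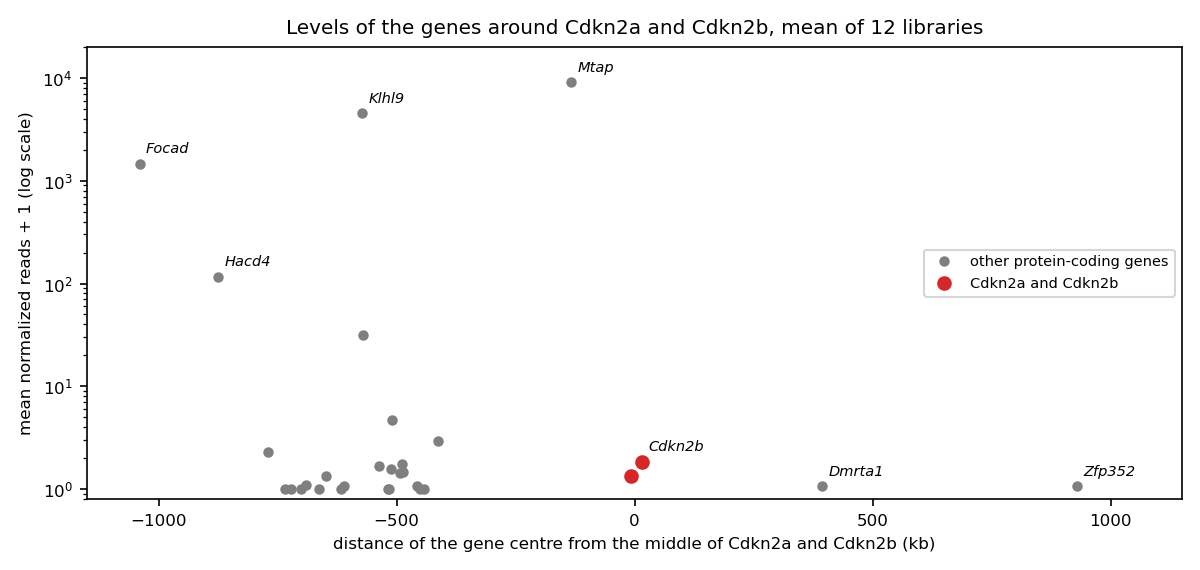
Mean normalized reads plus 1 over 12 libraries (vertical axis, log scale) of the protein-coding genes around Cdkn2a and Cdkn2b that are in the tables, against the distance of each gene's centre from the middle of the pair (horizontal axis, kb). Mtap, Klhl9 and Focad stand at 9050, 4564 and 1463 while Cdkn2a and Cdkn2b lie at the bottom with the interferon genes, Dmrta1 and Zfp352.

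Between the CBL lines, 3 members were called in CBL-70Z against WT-CBL and 7 in CBL-Y371S against WT-CBL; the same WT-CBL libraries enter both. CBL-70Z against WT-CBL had 2 members called higher (Ccnd1 and Cdk6) and 1 lower (Cdkn1a), over a background of 18.9% higher and 16.3% lower. Leaving out WT-CBL replicate 1 raised that count from 3 to 6, adding Ccnd2 (0.10), Cdk4 (-0.10) and Cdkn1b (0.09). CBL-Y371S against WT-CBL had 4 higher (Ccnd1, Ccnd3, Cdk4 and Cdkn1a) and 3 lower (Ccnd2, Cdkn1b and Cdkn2c), over 18.5% higher and 21.5% lower (2825 and 3278 genes, which became 3198 and 2466 with the trend removed). In CBL-70Z against CBL-Y371S all 8 were called, with Ccnd2, Cdk6, Cdkn1b and Cdkn2c higher and Ccnd1, Ccnd3, Cdk4 and Cdkn1a lower in CBL-70Z, over 25.9% higher and 24.5% lower. The sizes there ran from 0.14 (Ccnd3) to 0.68 (Cdk6). With the trend removed all 8 kept their direction and their call in this comparison, but several sizes changed: Cdk6 went from 0.68 to 0.35, Ccnd2 from 0.33 to 0.12, Cdk4 from -0.20 to -0.10, Cdkn1a from -0.29 to -0.17 and Cdkn2c from 0.17 to 0.35.

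**Figure D4:**
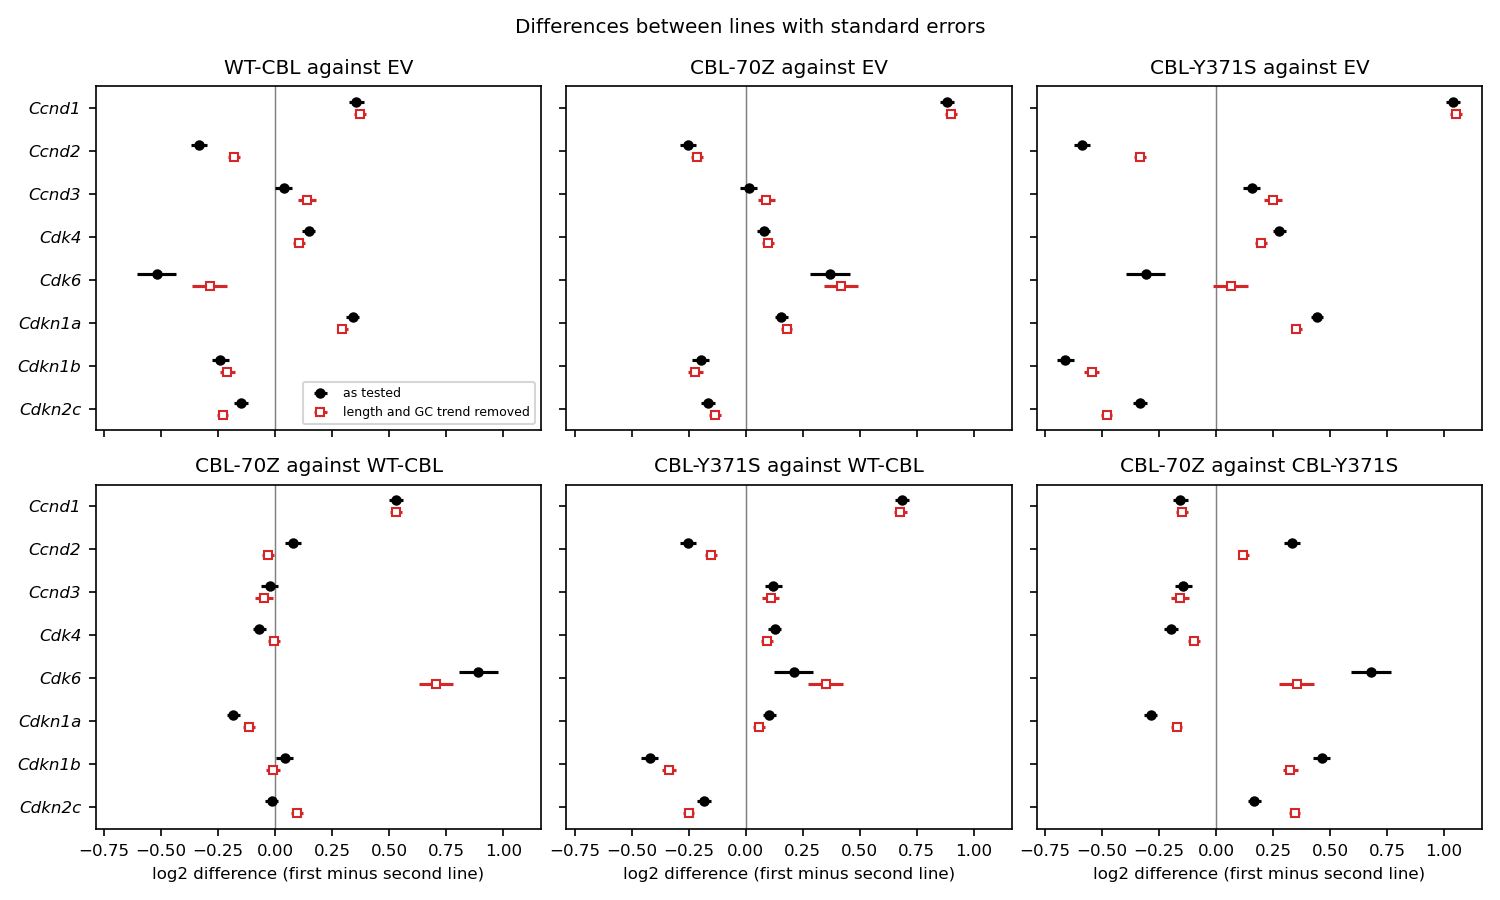
Log2 differences (horizontal axes, first minus second line) of the 8 tested members in the 6 comparisons, with limma SE as bars; black circles are the values as tested and open red squares those with the length and GC trend removed. Ccnd1 is to the right of 0 in the 5 comparisons other than CBL-70Z against CBL-Y371S, and Cdk6 in CBL-Y371S against EV crosses from -0.31 to 0.06.

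Several members share exon bases with a gene on the opposite strand, and the library kit does not mark strand. Ccnd1 shares 1100 of 4709 exon bases with Oraov1 (mean 456 normalized reads), and Cdk4 shares 641 of 3249 with Tspan31 (2561). Ccnd3 shares 361 of 8775 with Bysl (1636) and has a processed pseudogene, Ccnd3-ps, that is 96.6% identical over 417 bases and had a mean of 154.0. In the order WT-CBL, CBL-70Z and CBL-Y371S, Oraov1 differed from EV by 0.07, -0.02 and 0.10, and Ccnd1 by 0.36, 0.88 and 1.04. Tspan31 differed by 0.12, -0.10 and -0.05, and Cdk4 by 0.15, 0.08 and 0.28. Bysl differed by 0.14, 0.09 and 0.34, and Ccnd3 by 0.04, 0.01 and 0.16. The part of the overlapping genes in the members' differences was not tested. Reads in the shared exon stretches cannot be assigned to either gene. Cdk6 (mean 269) also has sequence similar to parts of many other genes, such as Rack1 (93.8% identical over 128 bases, mean 58804). Cdk4 has such sequence too, for example in Rin2 (90.3% over 113 bases, mean 4023). How far such reads enter the Cdk6 and Cdk4 values was not tested.

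The genes whose levels most resembled those of the 4 most variable members were sought among 10192 genes with a mean of at least 100, by Pearson r over the 12 libraries, which fall into 4 lines, as a description without a test. Nearest to Ccnd1 were Gpr149, an orphan receptor (r = 0.995), Prkar2b, a regulatory subunit of protein kinase A (r = 0.992), and Tmsb4x, the actin-binding thymosin beta 4 (r = 0.991). Gpr149 went from a mean of 146 normalized reads in EV to 241 in WT-CBL, 597 in the CBL-70Z line and 666 in CBL-Y371S. Among the nearest to Cdk6 were Psd3 (r = 0.983) and Met, the receptor of hepatocyte growth factor (r = 0.978). Met had a mean of 1681 in EV, 1409 in WT-CBL, 2018 in the CBL-70Z line and 1492 in CBL-Y371S. Fbxo30, Mum1l1 and the mesenchymal homeobox gene Prrx1 were nearest to Cdkn1b (r = 0.994, 0.994 and 0.994), and Atp11a, Lima1 and the thrombospondin Thbs2 to Ccnd2 (r = 0.994, 0.992 and 0.991).

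Genes that act beside and below the members were read from lists by function. Over all tested genes, 20.8% were called higher and 21% lower in WT-CBL against EV. These shares were 12.2% and 12.1% in CBL-70Z, and 29.8% and 30.3% in CBL-Y371S. Of 24 E2F targets of S phase, 16, 22 and 22 were called higher than EV (WT-CBL first, then CBL-70Z and last CBL-Y371S), with median log2 differences of 0.13, 0.25 and 0.43 beside 0.01, 0.01 and 0.01 over all tested genes. By limma 0 were called lower in each line, with 1, 0 and 0 at an unadjusted p below 0.05, 1, 0 and 0 by edgeR, and 0, 0 and 0 by DESeq2. The highest were Gins1 (0.33) and Tk1 (0.28) in WT-CBL, Uhrf1 (0.43) and Cdc6 (0.39) in the CBL-70Z line, and Tk1 (0.64) and Uhrf1 (0.63) in CBL-Y371S. Gins1 and Cdc6 serve the start of DNA replication, Tk1 makes thymidine phosphate and Uhrf1 maintains DNA methylation. CBL-Y371S exceeded WT-CBL in 22 of the 24, and 18 were lower in the CBL-70Z line than in CBL-Y371S, with 0 higher by limma, edgeR or DESeq2 and 1 at an unadjusted p below 0.05. Over all tested genes 18.5% were called higher in CBL-Y371S against WT-CBL, and 24.5% lower in CBL-70Z against CBL-Y371S. With the trend removed 17 were higher and 1 lower in WT-CBL than in EV, and 23 of the 24 were higher in each mutant line. Of all 15095 genes in that fit, 3142 were called higher and 2365 lower in WT-CBL. Those called higher were 2313 in CBL-70Z and 4846 in CBL-Y371S.

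Of 7 tested genes for cyclins E, A, B and F and for CDKs, 3, 6 and 6 were called higher than EV in the same order of lines. By limma 0 were lower at an adjusted or unadjusted p below 0.05, and 0 by edgeR or DESeq2. The genes called higher were 2, 6 and 6 by edgeR and 2, 4 and 6 by DESeq2. Over all 15266 tested genes DESeq2 called 2529, 1415 and 3975 higher. Cdk1, the mitotic kinase, rose by 0.18 in WT-CBL and 0.39 in CBL-Y371S, and Ccne2, a cyclin E of the entry into S phase, by 0.35 in the CBL-70Z line. Of 17 mitosis genes, which share Ccnb2 with the list before (Ccnb1 was not tested in either), 5 were higher and 6 lower in WT-CBL and 11 higher and 5 lower in CBL-Y371S. In CBL-70Z 13 were higher and 0 lower by limma, with 0 lower also at an unadjusted p below 0.05, by edgeR and by DESeq2. DESeq2 called 11 mitosis genes higher there. Birc5 (survivin) rose by 0.29, 0.23 and 0.60 in the same order. Mki67 and Cenpf, which have long transcripts, were lower in CBL-Y371S (-0.18 and -0.31) and higher with the trend removed (0.10 and 0.11), where all 17 mitosis genes were called higher. Of all 15095 genes in that fit, 4846 were called higher in CBL-Y371S.

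RB family, E2F and DP genes split by line. Of 17 tested, 3 were called higher and 5 lower in WT-CBL and 8 higher and 7 lower in CBL-Y371S. Over all tested genes the shares were 20.8% and 21% in WT-CBL, near these counts, and 29.8% and 30.3% in CBL-Y371S. In CBL-70Z they were 12.2% and 12.1%. In CBL-70Z 6 were higher and 0 lower by limma, with 0 lower by edgeR and by DESeq2, and 1 was lower at an unadjusted p below 0.05. Rb1, which encodes RB itself, was at a mean of 383 normalized reads in EV, 290 in WT-CBL and 234 in CBL-Y371S (-0.39, adjusted p = 0.00135, and -0.70, adjusted p = 9.56e-07), and the falls were -0.30 and -0.48 with the trend removed. Without EV replicate 2 the 6 calls in CBL-70Z became 3, and with the trend removed the 8 calls in WT-CBL became 5. E2f2, an activating E2F, rose by 0.58 in the CBL-70Z line and 0.52 in CBL-Y371S. Of 10 genes of the CDK-activating kinase, CDC25 phosphatases, WEE1 and CDK chaperones, 6 were higher and 1 lower in WT-CBL and 6 and 2 in CBL-Y371S. In CBL-70Z 5 were higher and 0 lower by limma, with 0 lower also at an unadjusted p below 0.05, by edgeR and by DESeq2. These counts rest on single libraries: without EV replicate 3 the 7 calls in WT-CBL became 1, without EV replicate 1, EV replicate 2 or WT-CBL replicate 3 they became 4, and the 5 in CBL-70Z became 3 without any 1 of the EV or CBL-70Z libraries or CBL-Y371S replicate 1 or 3. Cdc37, the chaperone that loads CDK4 and other kinases onto HSP90, rose by 0.18 in WT-CBL and 0.43 in CBL-Y371S, and Wee1, which inhibits CDK1, was lower in both (-0.16 and -0.17). In the CBL-70Z line the mean of Cdc37 was 6347 normalized reads beside 5802 in EV, and that of Wee1 was 553 beside 525. By DESeq2 3 genes of this list were higher and 0 lower in WT-CBL, and Wee1 was not called there (adjusted p = 0.0879).

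Among 18 genes that control the turnover of D cyclins, p27 and p21, 4, 4 and 7 were called higher than EV and 3, 4 and 7 lower. The shares over all tested genes were 20.8%, 12.2% and 29.8% higher and 21%, 12.1% and 30.3% lower. In WT-CBL the counts thus lay near the shares over all genes, and whether these lists depart from them was not tested. The 8 calls in CBL-70Z became 5 without EV replicate 1 and 4 without CBL-70Z replicate 1. A list of p53 targets beside Cdkn1a also holds Trp53, the gene of p53 itself. Of its 18 tested genes, 10, 4 and 9 were higher than EV and 2, 4 and 5 lower. By DESeq2 10, 2 and 8 were higher and 1, 4 and 4 lower. Trp53 was among those called higher in CBL-70Z (0.12). Bax, which promotes apoptosis, rose by 0.30 in WT-CBL and 0.49 in CBL-Y371S, while Btg2 was lower in the CBL-70Z line (-0.36) and Trp53inp1 in CBL-Y371S (-0.73). Both mutants had a low Btg2 mean, 1306 for CBL-70Z and 1332 for CBL-Y371S, beside 1674 for EV and 1650 for WT-CBL. Trp53inp1 also fell against EV for CBL-70Z (-0.20, limma adjusted p = 0.0111) and for WT-CBL (-0.20, limma adjusted p = 0.00644). Of 4 other tested genes listed beside the CDK inhibitors (Cdkn2d, Cdkn3, Cdkn2aip and Cables2), 2 were higher and 1 lower in CBL-Y371S than in EV. Cdkn2d, another INK4 gene, was 0.34 higher and Cdkn3 0.23 higher. The lower gene was Cdkn2aip (-0.27), which is not itself a CDK inhibitor. In WT-CBL 1 was lower (Cdkn2aip, -0.19), a call lost without EV replicate 1 or WT-CBL replicate 3. In CBL-70Z 0 of the 4 were called by limma, edgeR or DESeq2, with 1 higher and 1 lower at an unadjusted p below 0.05. Of 29 other cyclins and CDKs, 3, 2 and 6 were higher and 8, 2 and 14 lower than EV in WT-CBL, in the CBL-70Z line and in CBL-Y371S, and with the trend removed 4, 4 and 10 were higher and 1, 2 and 5 lower. The 11 calls in WT-CBL became 7 without EV replicate 1, EV replicate 3 or WT-CBL replicate 3.

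**Figure D5:**
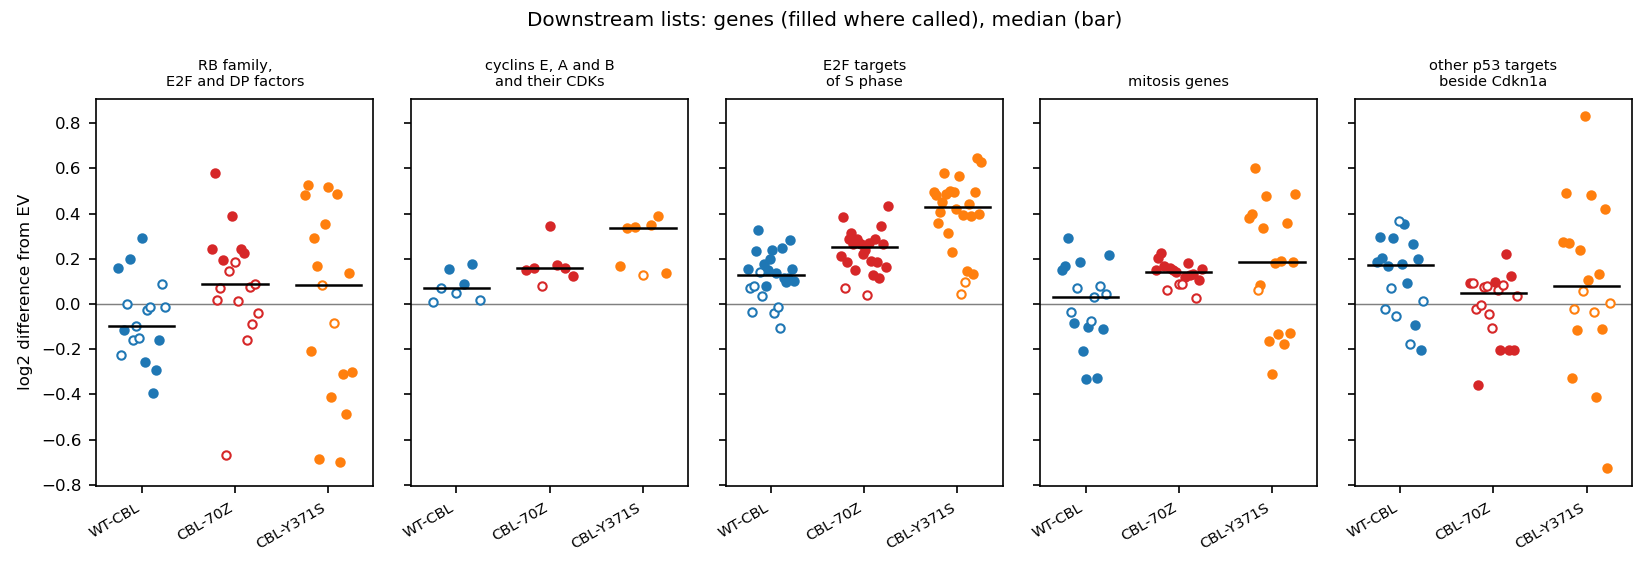
Log2 difference from EV (vertical axis) of each tested gene of 5 lists in the 3 CBL lines (horizontal axes), filled where called and open where not, with a bar at the list's median. The medians of the E2F targets stand at 0.13, 0.25 and 0.43, and the RB family and p53 lists spread to both sides of 0.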

How the data were processed

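RNA of 12 libraries was made into TruSeq libraries, which do not mark strand, and read as pairs of 36 bases. Per the labels and methods, the authors checked reads with FastQC 0.10.1, aligned them (TopHat2 2.0.13 over Bowtie2 2.2.4.0, build GRCm38), counted them per gene with HTSeq 0.9.1 and normalized them with DESeq2. The gene annotation and strand setting are not given in the sources used here. The values deposited by the authors are normalized counts (signal) in 3 tables of 1 CBL line beside EV; columns of fold changes and p-values were not used. Whole reads were recovered from 100% of values (tolerance 1e-06), with identical EV reads in the 3 tables, and rescaled jointly by size factors from the median of ratios over the 12 libraries. limma 3.58.1 (R 4.3.3, trend) was fitted to log2(value + 1) of all 12 libraries, for genes whose mean reached 10 in some line, with Benjamini-Hochberg adjustment over 15266 genes. The trend over exon length (GENCODE mouse release 21) and GC content was removed with natural splines of 5 degrees of freedom. edgeR 4.0.16 and DESeq2 1.42.0 on recovered reads were alternatives. The tests were also run on simulated data, with the same spread for all genes and no trend over length or GC content. The members and lists were chosen with earlier results of these data known. Named were all members, up to 2 highest and 2 lowest called genes of a list, the 3 genes most like each of the 4 most variable members (1 is not reported here), and the neighbours of Cdkn2a. Sequences are from RefSeq.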

Additional observations from a re-analysis of the deposited data

How the results depend on the processing

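Among the log2 differences of single members under the alternatives, 1140 kept their direction and their side of the threshold, 20 were called only under the alternative, 4 were no longer called and 12 turned in sign. Of these 12, 8 were not called in either fit: Ccnd2 (-0.03) and Cdkn1b (-0.01) in CBL-70Z against WT-CBL with the trend removed, and differences of Ccnd3 and Cdkn2c near 0 without 1 library. The other 4 arose on removing the trend over length and GC content, with and without a replicate block: Cdk6 in CBL-Y371S against EV (0.065 in both) and Cdkn2c in CBL-70Z against WT-CBL (0.10 in both). The number of members called stayed within 1.5 times under TMM scaling, total-read scaling, pseudocounts of 0.5 and 5, no filter, a filter at 50, edgeR, DESeq2 and only the lines compared. Leaving out 1 library gave 7 to 7 members in WT-CBL against EV, 6 to 7 in CBL-70Z against EV, 8 to 8 in CBL-Y371S against EV, 3 to 6 in CBL-70Z against WT-CBL, 7 to 7 in CBL-Y371S against WT-CBL and 8 to 8 in CBL-70Z against CBL-Y371S. Same-numbered libraries did not pair, as 1 of 18 pairs had a correlation over 0.1 (range -0.22 to 0.22) and 5 of 12 libraries were closest to their own number; with the replicate block 7, 6, 8, 3, 7 and 8 members were called in the 6 comparisons in the order above. Of the gene counts of the lists, 101 moved by more than 1.5 times and 1810 did not. Shares per exon length moved by more than 1 SD in 27 cases, all with the longest transcript as length; those for CDK4 with CDK6 and p21 with p27 were chosen after seeing the data. Depth limits Cdkn2a and Cdkn2b, at 4 and 11 reads, and Cdk6, whose level is the lowest of the tested members. The cause of the changes was not tested.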
